A study of Rattus norvegicus with 6 samples.

Results

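A set of 10 genes of antioxidant defence was followed in the enterocyte nuclei of rat colon: Gpx2, Gclc, Gclm, Txn1, Txnrd1, Prdx1, Srxn1, Fth1, Nqo1 and Nfe2l2. The genes were chosen by name, with earlier results of these data known, and 9 of the 10 were found among the 17388 genes of the enterocyte counts. Srxn1, the sulfiredoxin that repairs overoxidized peroxiredoxins, was not among them and is not analysed here. The samples came from colon of wildtype male Wistar rats in 3 treatment groups. Sham rats drank water without dextran sulfate sodium (DSS), an agent that injures the colon epithelium. Placebo rats drank 5% DSS for 3 days and afterwards took vehicle capsules 2 times a day for 4 days. PL8177 rats drank the same DSS and took capsules with 50 µg of PL8177, an agonist of the melanocortin 1 receptor, on the same schedule. DSS colitis is a chemical injury model, and nuclei of whole frozen tissue were profiled, so RNA of the cytoplasm was mostly not sampled. Each treatment held nuclei of 3 library tags, here called libraries. The labels do not tie the tags to rats, so the p-values measure only the spread between these libraries.

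The enterocyte counts held 8782 nuclei and 319125 (placebo GR23) to 4123319 (PL8177 GR43) UMIs per library, a UMI (unique molecular identifier) being the tag that lets copies of 1 captured RNA be counted once. The median nucleus held 437 UMIs in sham GR13, 520 in sham GR15 and 2331 in sham GR12, so the sham libraries spanned the whole range of depth. The T cell counts, used as background, held 1018 nuclei. In enterocyte nuclei, 14 T cell markers summed to 0.143 to 0.846 and 15 enterocyte markers to 151 to 346 of 10000 UMIs over the 9 libraries, so the enterocyte label held. The T cell nuclei of placebo GR23, 685 of the 1018, went against their label: T cell markers summed to 2.11 and enterocyte markers to 208 of 10000 UMIs there, against 25.3 to 58.9 and 21.6 to 90.9 in the other T cell libraries. Results on T cell nuclei are therefore also given without that library. Of the 9790 distinct barcodes, 10 were found in more than 1 library.

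Cells of the colon surface face oxidants from their own metabolism, from luminal bacteria and from invading leukocytes. Glutathione and thioredoxin are the main thiol systems that reduce peroxides, both fed by NADPH, while ferritin stores iron in a form that does not make radicals. The transcription factor NRF2, encoded by Nfe2l2, is held down by KEAP1 and, on release by oxidants or electrophiles, binds antioxidant response elements near many genes of these systems. GPX2 is the glutathione peroxidase typical of gut epithelium and is known as an NRF2 target that is most abundant near the crypt base.

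Promoter windows are shown because the core of the antioxidant response element is a short motif that can be looked for in them. The windows are the 250 bases before each gene start in RefSeq (build GRCr8), read 5′ to 3′ on the gene's strand. The motif letters TGACNNNGC and TGAGNNNGC were searched on both strands. A window was held for 8 of the 9 genes, with 2 for Txnrd1 and none for Fth1. A match was found for 4 genes, Gpx2, Txnrd1, Prdx1 and Gclm, and in 22.8% of all 33469 windows of the same length. Capitals mark the match, which lay on the opposite strand in each of the 4 windows shown and read TGACTTAGC in Gpx2, TGACAAAGC in Txnrd1, TGACTCAGC in Prdx1 and TGACTAAGC in Gclm when read on that strand.
Gpx2 chr6:101230034-101230283 (- strand): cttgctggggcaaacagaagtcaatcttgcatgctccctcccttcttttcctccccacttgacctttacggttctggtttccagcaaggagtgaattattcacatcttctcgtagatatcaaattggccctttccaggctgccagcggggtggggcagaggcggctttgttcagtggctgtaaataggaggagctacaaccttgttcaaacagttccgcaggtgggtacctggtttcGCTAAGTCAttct
Txnrd1 chr7:22755905-22756154 (- strand): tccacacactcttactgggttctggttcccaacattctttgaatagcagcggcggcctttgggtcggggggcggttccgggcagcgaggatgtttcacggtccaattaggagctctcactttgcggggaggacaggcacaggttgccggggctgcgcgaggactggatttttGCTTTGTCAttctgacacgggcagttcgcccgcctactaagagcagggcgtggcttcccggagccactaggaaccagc
Prdx1 chr5:135383656-135383905 (+ strand): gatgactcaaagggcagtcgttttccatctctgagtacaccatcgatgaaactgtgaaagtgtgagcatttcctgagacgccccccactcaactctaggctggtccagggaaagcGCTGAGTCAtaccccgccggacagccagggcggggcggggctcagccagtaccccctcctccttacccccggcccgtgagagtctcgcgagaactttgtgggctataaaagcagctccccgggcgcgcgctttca
Gclm chr2:213031885-213032134 (+ strand): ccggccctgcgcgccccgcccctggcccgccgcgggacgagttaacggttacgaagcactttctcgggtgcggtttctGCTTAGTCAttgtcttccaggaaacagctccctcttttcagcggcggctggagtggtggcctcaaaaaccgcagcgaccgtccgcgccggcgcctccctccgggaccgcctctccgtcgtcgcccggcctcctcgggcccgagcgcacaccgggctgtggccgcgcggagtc
The Gpx2 match covered bases 13 to 5 before the gene start, nearest of the 4. The letters were not found in the windows of Gclc, Txn1, Nqo1 and Nfe2l2. A match is a description of the sequence only.

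Gpx2 showed the widest difference of the 9 genes between sham and placebo enterocytes. Its level was 19.9, 61.8 and 62.4 UMIs per 10000 UMIs in sham GR12, GR13 and GR15, a mean of 48.0 ± 24.4 (SD, n = 3). In placebo GR22, GR23 and GR24 it was 5.56, 16.6 and 8.71, a mean of 10.3 ± 5.69 (SD, n = 3). In PL8177 GR41, GR43 and GR44 it was 17.0, 7.21 and 29.5, a mean of 17.9 ± 11.2 (SD, n = 3). Every sham library lay above every placebo library, though sham GR12 stood close to placebo GR23, and the PL8177 libraries overlapped with both groups. With the libraries summed and fitted across 9424 genes, the sham level was 5.38-fold the placebo level, a log2 fold change of 2.43 (SE 0.585). This missed the threshold in edgeR's quasi-likelihood test after Benjamini-Hochberg adjustment (unadjusted p = 0.00124, adjusted p = 0.191), whereas DESeq2 called it at a log2 fold change of 2.44 (adjusted p = 0.00183), as did edgeR with no filter on low counts (2.40, adjusted p = 0.00261). Against placebo, PL8177 differed by a log2 fold change of 1.02 (SE 0.562; edgeR adjusted p = 0.630), and against sham by -1.41 (SE 0.565; edgeR adjusted p = 0.733). The difference of PL8177 from placebo went to 0.41 without PL8177 GR44 and to 1.49 without placebo GR23. The exact two-sided permutation test on the library levels gave p = 0.1 for sham against placebo, the smallest that 3 against 3 libraries allow, 0.4 for PL8177 against placebo and 0.2 for PL8177 against sham.

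**Figure D1:**
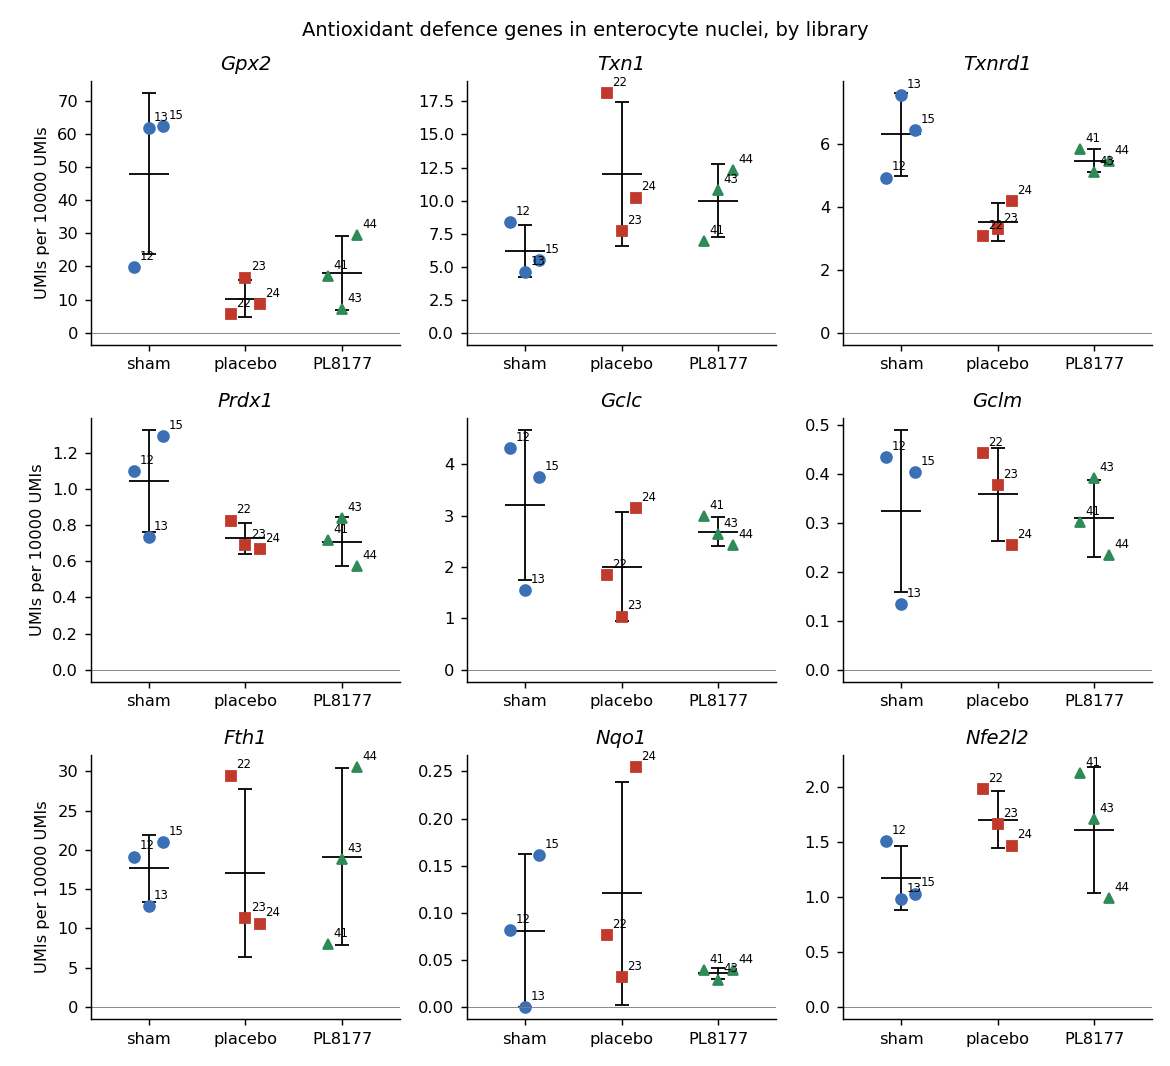
Level of each of the 9 genes (y axis, UMIs per 10000 UMIs, each panel with its own linear scale) in the enterocyte nuclei of each library, by treatment. Points are libraries, with the number of the GR tag beside each; horizontal lines are means and bars 1 SD (n = 3). The sham libraries sit above the placebo libraries for Gpx2 and Txnrd1, and the 3 treatments overlap for Fth1, Gclc, Gclm and Nqo1.

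A gene was called when its log2 fold change was past 0.5 in either direction and its adjusted p was under 0.05. By edgeR, 0 of the 9 genes were called in any of the 3 treatment comparisons, beside 0.0% of the 9424 genes tested in sham against placebo, 0.0% in PL8177 against placebo and 0.0% in PL8177 against sham. At an unadjusted p below 0.05 in edgeR, 4 of the 9 genes passed in sham against placebo, beside 12.4% of all genes, 2 in PL8177 against placebo, beside 9.24%, and 2 in PL8177 against sham, beside 6.59%. DESeq2 called 2 of the 9, Gpx2 and Txnrd1, in sham against placebo, beside 1.14% of all genes (107 in all), and none of them in the other comparisons, where it called 63 and 4 genes. The PL8177 and sham comparisons share their placebo libraries, so their values are given side by side without a measure of how alike they are.

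Of the glutathione genes, Gclc encodes the catalytic and Gclm the modifier subunit of glutamate-cysteine ligase, which makes the first bond of glutathione. Gclc stood at 4.32, 1.56 and 3.75 UMIs per 10000 UMIs in sham GR12, GR13 and GR15, at 1.84, 1.03 and 3.14 in placebo GR22, GR23 and GR24, and at 2.99, 2.64 and 2.43 in PL8177 GR41, GR43 and GR44. The 3 groups overlapped, with log2 fold changes of 0.77 (SE 0.384) for sham and 0.54 (SE 0.381) for PL8177 against placebo (edgeR adjusted p = 0.431 and 0.708). Gclm held few UMIs, 6 to 175 per library, and its levels of 0.134 to 0.443 per 10000 UMIs gave log2 fold changes of 0.05 (SE 0.370) and -0.03 (SE 0.358). Neither subunit differed beyond the spread between libraries.

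In the thioredoxin system, the libraries of Txnrd1 separated sham from placebo and those of Txn1 did not. Txnrd1, the selenoprotein reductase that keeps cytosolic thioredoxin reduced, stood at 4.92, 7.53 and 6.44 UMIs per 10000 UMIs in sham GR12, GR13 and GR15 (mean 6.30 ± 1.31, SD, n = 3). It stood at 3.06, 3.29 and 4.18 in placebo GR22, GR23 and GR24 (3.51 ± 0.592, SD, n = 3) and at 5.83, 5.11 and 5.46 in PL8177 GR41, GR43 and GR44 (5.46 ± 0.362, SD, n = 3). Every sham and every PL8177 library lay above every placebo library, a separation found in the sham direction for 5.36% of all genes and in the PL8177 direction for 4.7%, while the PL8177 levels lay among those of sham. The log2 fold change was 1.01 (SE 0.250) for sham and 0.80 (SE 0.248) for PL8177 against placebo, both short of the threshold by edgeR (unadjusted p = 0.00156 and 0.00689, adjusted p = 0.195 and 0.368). DESeq2 called the first (adjusted p = 0.0235) and not the second (adjusted p = 0.172). Between PL8177 and sham the log2 fold change was -0.20 (SE 0.246; edgeR adjusted p = 0.898).

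Txn1, thioredoxin itself, stood at 8.39, 4.59 and 5.51 UMIs per 10000 UMIs in sham GR12, GR13 and GR15. It stood at 18.1, 7.68 and 10.2 in placebo GR22, GR23 and GR24 and at 6.90, 10.8 and 12.3 in PL8177 GR41, GR43 and GR44. Sham GR12 lay above placebo GR23, so the groups overlapped. The log2 fold change was -0.83 (SE 0.350) for sham against placebo, -0.10 (SE 0.347) for PL8177 against placebo and 0.73 (SE 0.350) for PL8177 against sham (edgeR adjusted p = 0.373, 0.961 and 0.747). Without placebo GR22 the difference of sham from placebo was -0.40. Prdx1, a peroxiredoxin that thioredoxin reduces, stood at 1.10, 0.735 and 1.29 in sham GR12, GR13 and GR15, 0.825, 0.689 and 0.667 in placebo GR22, GR23 and GR24 and 0.716, 0.839 and 0.572 in PL8177 GR41, GR43 and GR44. Its sham and placebo libraries overlapped through GR13 and GR22 alone, with a log2 fold change of 0.65 (SE 0.246; edgeR unadjusted p = 0.0209, adjusted p = 0.331), and PL8177 differed from placebo by 0.12 (SE 0.242) and from sham by -0.53 (SE 0.243). Txn1, Prdx1 and Fth1 have near-identical processed copies in mammalian genomes, and how reads shared with such copies were counted was not given in the sources used here, so their counts are uncertain.

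Fth1, the heavy chain of ferritin, varied more within each treatment than between treatments. It stood at 19.1, 12.9 and 21.0 UMIs per 10000 UMIs in sham GR12, GR13 and GR15, at 29.5, 11.3 and 10.6 in placebo GR22, GR23 and GR24, and at 8.03, 18.8 and 30.5 in PL8177 GR41, GR43 and GR44. The lowest and the highest library were both of the PL8177 group, and the group means were 17.6 ± 4.25, 17.1 ± 10.7 and 19.1 ± 11.3 (SD, n = 3). The log2 fold changes were 0.18 (SE 0.479), 0.34 (SE 0.478) and 0.16 (SE 0.478) in the 3 comparisons (edgeR adjusted p = 0.911, 0.881 and 0.977). Placebo GR22 alone supplied 83.9% of the placebo Fth1 UMIs, so a level pooled over the placebo nuclei is mostly that of 1 library.

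Nqo1, the quinone reductase often read as a sign of NRF2 activity, was near the limit of detection. It gave 26, 0 and 8 UMIs in sham GR12, GR13 and GR15, 30, 1 and 45 in placebo GR22, GR23 and GR24 and 7, 12 and 3 in PL8177 GR41, GR43 and GR44. On these counts PL8177 differed from placebo by a log2 fold change of -1.83 (SE 0.753; edgeR unadjusted p = 0.0311, adjusted p = 0.498) and sham from placebo by -0.61 (SE 0.741), and placebo GR24 supplied 59.2% of the placebo UMIs. DESeq2 gave no adjusted p for Nqo1 against placebo. Nfe2l2 transcript stood at 1.51, 0.980 and 1.03 UMIs per 10000 UMIs in sham GR12, GR13 and GR15, 1.98, 1.66 and 1.46 in placebo GR22, GR23 and GR24 and 2.12, 1.70 and 0.987 in PL8177 GR41, GR43 and GR44. Sham lay below placebo except for GR12, which stood above placebo GR24, with a log2 fold change of -0.37 (SE 0.279; edgeR adjusted p = 0.594). NRF2 is regulated mainly through protein stability, which these counts do not measure.

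**Figure D2:**
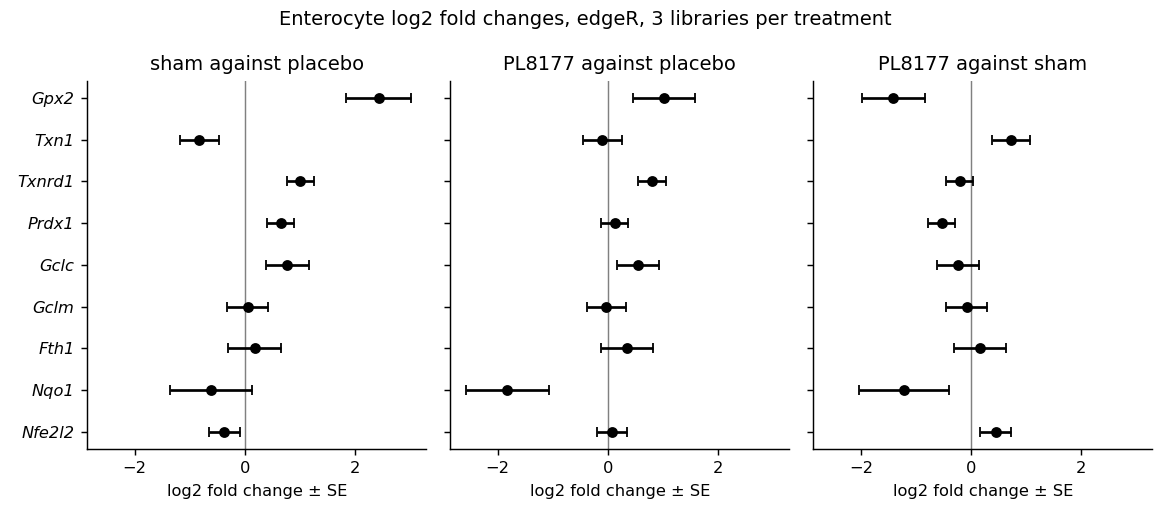
Log2 fold change (x axis, from edgeR, with bars of 1 SE) of the 9 genes in enterocyte nuclei for sham against placebo, PL8177 against placebo and PL8177 against sham. Gpx2 lies at 2.43, 1.02 and -1.41 and Txnrd1 at 1.01, 0.80 and -0.20, while Gclm lies at 0.05, -0.03 and -0.08.

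The depth of a nucleus bore on several of these levels, so they were also read within bands of UMIs per nucleus. Gpx2 was lower in nuclei of over 1500 UMIs than in nuclei under 500 UMIs in 8 of 9 libraries, while Txn1 was higher in 8 of 9 and Prdx1 lower in 8 of 9. Sham GR13 and GR15, the highest in Gpx2, were also the shallowest libraries. Within nuclei of 500 to 1500 UMIs, Gpx2 stood at 24.3, 63.5 and 70.3 UMIs per 10000 UMIs in sham GR12, GR13 and GR15, at 5.42, 19.5 and 7.96 in placebo GR22, GR23 and GR24 and at 18.5, 6.35 and 31.0 in PL8177 GR41, GR43 and GR44. The sham libraries lay above the placebo libraries in this band, with a log2 fold change of 2.55 (SE 0.721; edgeR adjusted p = 0.209). The band did not make the depths equal: its nuclei held a mean of 754 UMIs in sham GR13 and 798 in sham GR15, against 853 to 945 in the placebo libraries and 1061 in sham GR12. In nuclei of over 1500 UMIs Gpx2 stood at 19.4, 26.7 and 29.5 in sham GR12, GR13 and GR15 and at 5.54, 12.3 and 9.14 in placebo GR22, GR23 and GR24. PL8177 GR41, GR43 and GR44 stood at 16.5, 7.22 and 27.1 there. These sham values rest on 651, 16 and 43 nuclei. Within nuclei of 500 to 1500 UMIs, Txnrd1 had a log2 fold change of 1.38 (SE 0.402; edgeR adjusted p = 0.210) for sham and 0.74 (SE 0.398; edgeR adjusted p = 0.789) for PL8177 against placebo. Its levels there were 4.16, 7.51 and 7.37 in sham GR12, GR13 and GR15 and 2.16, 2.79 and 3.70 in placebo GR22, GR23 and GR24. In PL8177 GR41, GR43 and GR44 they were 4.38, 3.02 and 5.83. PL8177 GR43 lay below placebo GR24, so every sham library but not every PL8177 library lay above placebo in these nuclei. The Txn1 difference went from -0.83 to -0.03 (SE 0.437; edgeR adjusted p = 0.977) between sham and placebo in the band of 500 to 1500 UMIs, and from -0.10 to 0.42 (SE 0.433; edgeR adjusted p = 0.860) between PL8177 and placebo. In the band of 500 to 1500 UMIs, Txn1 stood at 4.41, 4.94 and 5.66 in sham GR12, GR13 and GR15, at 7.70, 5.02 and 5.22 in placebo GR22, GR23 and GR24, and at 4.55, 4.64 and 12.1 in PL8177 GR41, GR43 and GR44. The band of 500 to 1500 UMIs was chosen after the data were seen. The share of all genes whose sham libraries all lay above placebo within it is not given here.

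**Figure D3:**
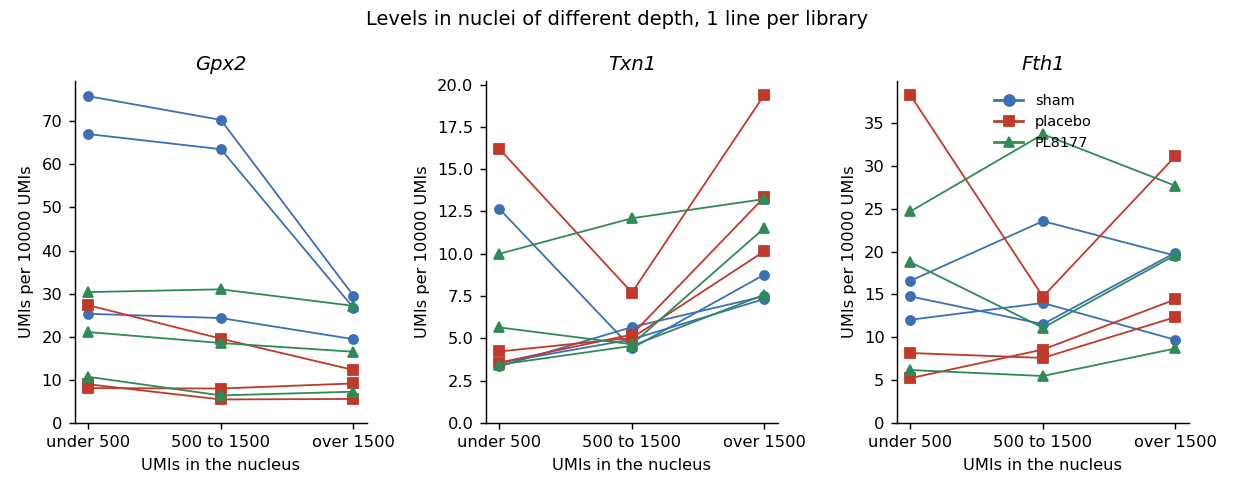
Level of Gpx2, Txn1 and Fth1 (y axis, UMIs per 10000 UMIs) in enterocyte nuclei with under 500, 500 to 1500 and over 1500 UMIs (x axis); each line is 1 library, coloured by treatment. In the middle band Gpx2 is at 24.3 or more in the sham libraries and at 19.5 or less in the placebo libraries, and Txn1 is higher in the right band than in the left in 8 of 9 libraries.

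The share of nuclei with at least 1 UMI was compared with the T cell nuclei as background, after each nucleus was thinned to 300 UMIs and shallower nuclei were left out (252 sham, 103 placebo and 207 PL8177 enterocyte nuclei). Gpx2 was detected in 56.5% of thinned sham (exact 95% interval 54.4 to 58.5), 17.4% of placebo (16.0 to 18.8) and 30.9% of PL8177 enterocyte nuclei (29.3 to 32.6). By library the thinned shares were 39.3%, 71.4% and 66.0% in sham GR12, GR13 and GR15. They were 12.9%, 37.8% and 17.7% in placebo GR22, GR23 and GR24 and 37.7%, 17.3% and 49.3% in PL8177 GR41, GR43 and GR44. Sham GR12 was thus close to placebo GR23, and the intervals pooled over nuclei do not compare the treatments. The unthinned shares over all nuclei of a treatment were 82.5% in sham, 46.1% in placebo and 64.8% in PL8177, at median depths of 730, 1244 and 1279 UMIs. In the T cell files the thinned share was 22.2% in sham, 37.7% in placebo and 20.2% in PL8177 nuclei at median depths of 1146.5, 731 and 657.5 UMIs. Without GR23 it was 17.4% (exact 95% interval 13.3 to 22.2) over the 333 remaining T cell nuclei, of which 29 were left out as too shallow, and 32.9% over the enterocyte nuclei of the same libraries. Txn1 was detected in 5.26% of thinned T cell nuclei without GR23 against 18.03% of enterocyte nuclei, Fth1 in 10.2% against 31.2% and Txnrd1 in 4.28% against 12.2%. Intervals cover counting error only, not the spread between libraries. Within the placebo libraries the thinned Gpx2 share was 12.9% in enterocyte (exact 95% interval 11.2 to 14.9) and 0% in T cell nuclei of GR22 (0 of 24, exact 95% interval up to 14.2). It was 17.7% (15.6 to 19.9) and 13.3% (6.81 to 22.5) in those of GR24, and 37.8% and 42.2% in those of GR23. In each of the 3 placebo libraries the intervals of the 2 cell types overlapped, which does not decide whether detection differed there. They also overlapped in sham GR13, PL8177 GR41 and PL8177 GR43. In T cell nuclei of sham GR12, sham GR15 and PL8177 GR44 the exact 95% intervals ended at 25.36%, 56.97% and 42.28%. The enterocyte intervals of these libraries began higher, at 36.15%, 62.03% and 45.66%. These T cell shares rest on 73, 21 and 30 thinned nuclei.

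In the T cell files, levels were taken over the 15108 genes that all 3 tables held. Of the 9 genes, 8 passed the filter on low counts, and 5 were called lower in T cell than in enterocyte nuclei of the same libraries, beside 20.7% of the 5194 genes tested. Fth1 had a log2 fold change of -2.49 (SE 0.332), Txn1 of -2.16 (SE 0.403), Gclc of -1.60 (SE 0.288), Txnrd1 of -1.37 (SE 0.265) and Gpx2 of -0.90 (SE 0.299), with edgeR adjusted p of 5.08e-06, 0.000240, 0.000166, 0.000333 and 0.0216. Gclm, Prdx1 and Nfe2l2 were not called, at -0.40, 0.12 and -0.20. Without GR23, the same 5 genes were called lower, beside 31.0% of genes, with Txn1 at -2.70 and Gpx2 at -1.19. The Gpx2 call was lost without sham GR12, sham GR15 or PL8177 GR44 (edgeR adjusted p = 0.0681, 0.0706 and 0.0544). It was also lost when total UMIs were used for scaling in place of TMM factors (log2 fold change -0.49, edgeR adjusted p = 0.0843), a choice that moved the median of all genes from -0.08 to 0.22 and the genes called from 693 higher and 1076 lower to 1130 higher and 711 lower.

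The level of Gpx2 was lower in the T cell file than in the enterocyte file in 7 of 9 libraries, the exceptions being placebo GR22 and GR23. In the T cell files it was 8.60, 27.3 and 22.1 UMIs per 10000 UMIs in sham GR12, GR13 and GR15, 5.78, 22.2 and 5.93 in placebo GR22, GR23 and GR24 and 13.3, 5.96 and 17.1 in PL8177 GR41, GR43 and GR44. In T cell marker nuclei, those with at least 1 UMI of the T cell markers and no more UMIs of the enterocyte markers, it was 7.06, 15.7 and 9.39 in the sham, 2.32, 4.46 and 4.00 in the placebo and 3.12, 0.686 and 5.71 in the PL8177 libraries in the same order. This rule held for 57 of 74, 12 of 19 and 14 of 27 T cell nuclei in sham GR12, GR13 and GR15. For placebo GR22, GR23 and GR24 it held for 13 of 26, 21 of 685 and 54 of 91. For PL8177 GR41, GR43 and GR44 it held for 13 of 22, 16 of 39 and 19 of 35. Results on T cell nuclei without GR23 thus still include nuclei outside this rule. In the T cell marker nuclei every sham library lay above every placebo library, on 142 UMIs in sham, 26 in placebo and 10 in PL8177. Sham GR12, GR13 and GR15 held 124, 7 and 11 of these UMIs and placebo GR22, GR23 and GR24 held 4, 8 and 14. The order thus rests on few UMIs, and the share of all genes with this order in these nuclei is not given here. Against enterocytes these nuclei gave a log2 fold change of -2.54 (SE 0.272; edgeR adjusted p = 2.19e-19) for Gpx2, -4.33 (SE 0.334; edgeR adjusted p = 1.00e-36) for Fth1 and -3.68 (SE 0.344; edgeR adjusted p = 3.22e-25) for Txn1. That fit called 1502 of the 4166 genes tested lower, with a median of -0.37 over all of them. The choice of these nuclei left out those richer in enterocyte marker RNA, so lower levels of enterocyte genes are partly built into it. The part of free enterocyte RNA left in the T cell values was not tested.

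**Figure D4:**
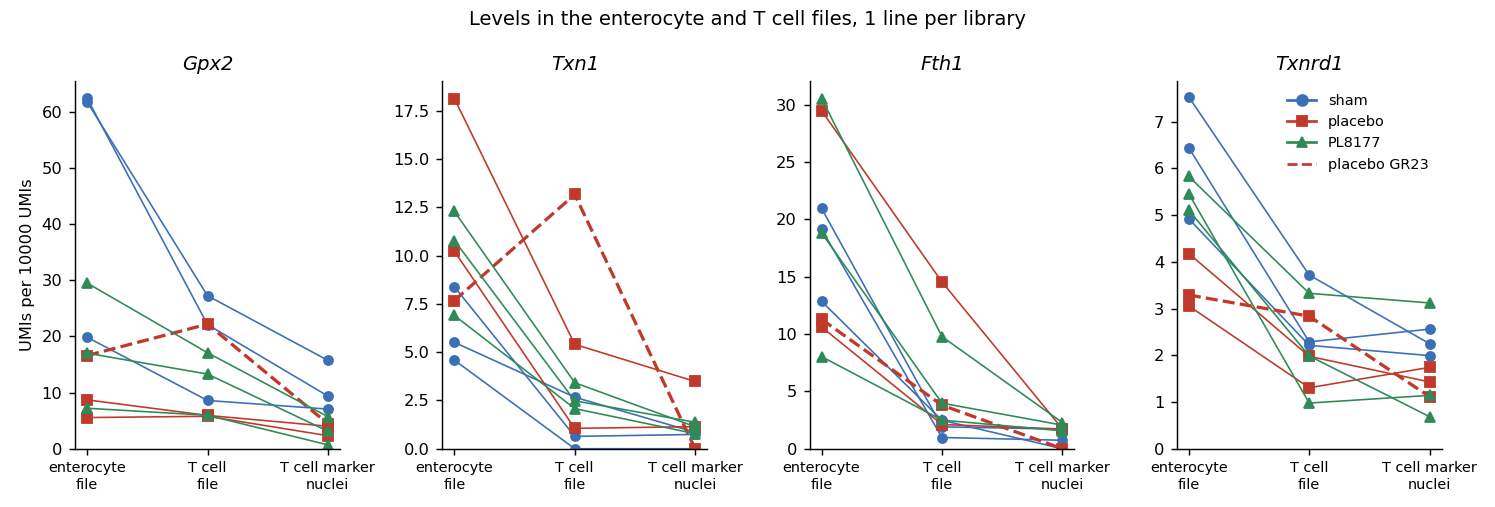
Level of Gpx2, Txn1, Fth1 and Txnrd1 (y axis, UMIs per 10000 UMIs) in the enterocyte files, the T cell files and the T cell marker nuclei within the latter; each line is 1 library and the dashed line placebo GR23. Fth1 and Txnrd1 are lower in the T cell file than in the enterocyte file in all 9 libraries, and Gpx2 and Txn1 are higher there in placebo GR23.

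Where along the crypt the genes were expressed was read by setting each enterocyte nucleus to a crypt side or a surface side, by whether it held more UMIs of 26 crypt genes (such as Lgr5, Ascl2 and Mki67) or of 13 surface genes (such as Slc26a3, Krt20 and Car4). This gave 214 crypt-side and 8130 surface-side nuclei, with 438 of equal numbers in neither class. The crypt-side nuclei were shallower, with a median of 533.5 UMIs against 1192.5. None of the 9 genes was used to form the sides. Of the 9 genes, 7 passed the filter on low counts, and 4 were called lower on the crypt side, beside 27.6% of the 3085 genes tested.

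Txn1 and Fth1 had the largest of these differences, with the counted level lower on the crypt side in 9 of 9 libraries. Txn1 ran from 0 to 4.45 UMIs per 10000 UMIs on the crypt side (median 0.945) and from 4.61 to 18.3 on the surface side (median 8.84). Its log2 fold change was -3.44 (SE 0.333; edgeR adjusted p = 7.33e-23). Fth1 ran from 0 to 6.40 on the crypt side (median 2.004) and from 8.18 to 31.2 on the surface side (median 19.1), with a log2 fold change of -2.95 (SE 0.301; edgeR adjusted p = 1.06e-20). These differences rest on 22 Txn1 and 55 Fth1 UMIs among 197452 crypt-side UMIs, and a count of 0, which allows up to 3 UMIs, sets no low level in the smallest libraries. It allows up to 79.2 UMIs per 10000 UMIs for both genes in sham GR13, 13.4 for Fth1 in sham GR15 and 6.40 for Txn1 in PL8177 GR44, the last against 12.6 counted on the surface side there. Txnrd1 was lower on the crypt side in 7 of 9 libraries, with a log2 fold change of -1.02 (SE 0.265; edgeR adjusted p = 0.000524). Within nuclei of 500 to 1500 UMIs, a band chosen after the data were seen that held 85 crypt-side and 3016 surface-side nuclei of 7 libraries, Txn1 and Fth1 were again called lower on the crypt side, beside 15.6% of the 1140 genes tested. Txn1 stood at -2.17 (SE 0.402; edgeR adjusted p = 2.25e-06) and Fth1 at -3.00 (SE 0.378; edgeR adjusted p = 3.75e-13) there, on 10 and 11 crypt-side UMIs, while Txnrd1 at -0.72 (SE 0.379) missed the threshold (edgeR adjusted p = 0.172).

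Gpx2 was called lower on the crypt side (log2 fold change -0.77, SE 0.253; edgeR adjusted p = 0.00694), but its levels were lower there in 4 of 9 libraries only. On the crypt side it stood at 8.40, 0 and 49.0 UMIs per 10000 UMIs in sham GR12, GR13 and GR15, against 20.1, 62.1 and 63.5 on the surface side. In placebo GR22, GR23 and GR24 it stood at 6.24, 18.5 and 9.22 on the crypt side, against 5.54, 16.8 and 8.79. In PL8177 GR41, GR43 and GR44 it stood at 20.04, 5.31 and 29.8 on the crypt side, against 17.0, 7.24 and 29.4. All 3 sham libraries were thus lower on the crypt side and all 3 placebo libraries slightly higher, but the crypt side of sham GR13 was 1 nucleus and that of sham GR15 was 8 nuclei. The TMM factors of these small sums were 7.74 and 2.35. With total UMIs for scaling, the Gpx2 difference was -0.09 (SE 0.160; edgeR adjusted p = 0.664). With the 6 libraries of at least 20 crypt-side nuclei it was -0.43 (SE 0.170; edgeR adjusted p = 0.0296), short of the size required, beside 25.3% of genes called lower there. Within nuclei of 500 to 1500 UMIs it was -0.55 (SE 0.247; edgeR adjusted p = 0.0944). With total UMIs and with the 6 libraries Txn1 stood at -3.08 and -3.46, Fth1 at -2.49 and -2.84 and Txnrd1 at -0.59 and -0.96, each still called. Among crypt-side nuclei alone, the Gpx2 difference of sham from placebo was 0.30 (SE 0.576; edgeR adjusted p = 0.971), against 2.43 over all enterocyte nuclei, and that of PL8177 from placebo 0.46 (SE 0.492; edgeR adjusted p = 0.993). That fit tested 217 genes, on 37, 0 and 11 Gpx2 UMIs in sham GR12, GR13 and GR15. These counts are too few to show whether the sham difference is absent on the crypt side.

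Gclc, Prdx1 and Nfe2l2 were not called between the sides, at log2 fold changes of -0.22 (SE 0.270), 0.48 (SE 0.335) and 0.53 (SE 0.273; edgeR adjusted p = 0.546, 0.253 and 0.101). With total UMIs for scaling, Prdx1 at 0.85 and Nfe2l2 at 0.88 were called higher on the crypt side (edgeR adjusted p = 0.0160 and 0.000993). That scaling moved the median of all genes from -0.13 to 0.26 and the calls from 535 higher and 851 lower to 1028 higher and 601 lower.

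**Figure D5:**
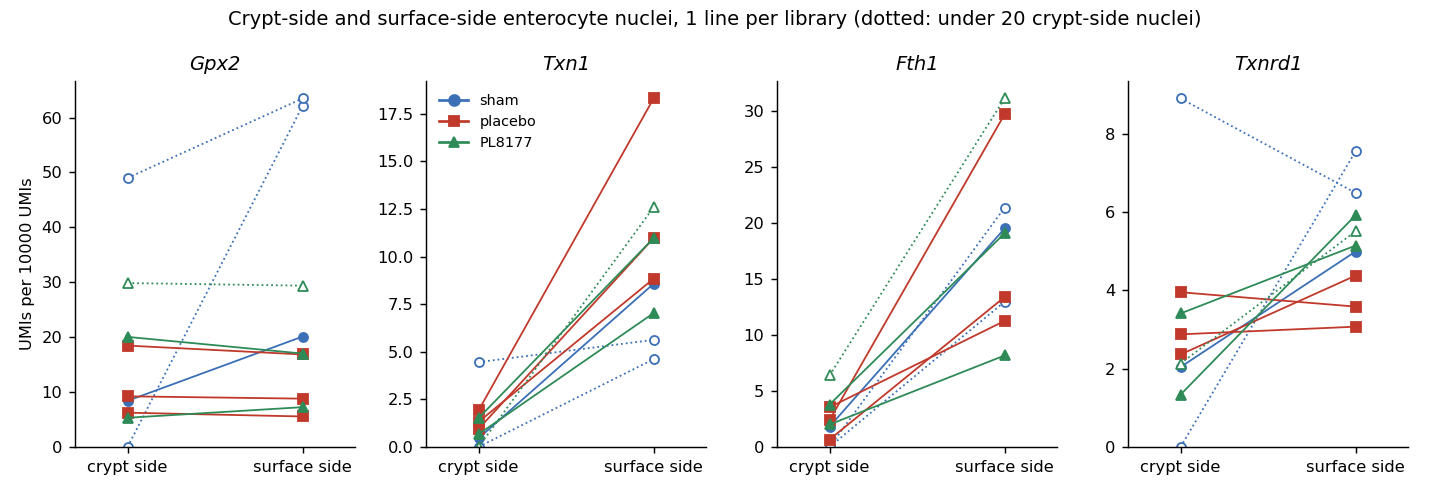
Level of Gpx2, Txn1, Fth1 and Txnrd1 (y axis, UMIs per 10000 UMIs) on the crypt side and the surface side of the enterocyte nuclei; each line is 1 library, and dotted lines with open symbols mark the 3 libraries with under 20 crypt-side nuclei. The counted levels of Txn1 and Fth1 are higher on the surface side in every library, with crypt-side counts of 0 in 3 libraries, while Gpx2 stays nearly level in the placebo libraries.

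The other genes of these pathways, 93 in 7 lists, gave no called gene in any treatment comparison by edgeR. Of the 88 in the files, 76 passed the filter. At an unadjusted p below 0.05, 4 were higher and 7 lower in sham than in placebo, with a median log2 fold change of -0.14 beside -0.02 over all genes tested. For PL8177 against placebo, 3 were higher and 6 lower at that p, with a median of -0.01 beside -0.01, and for PL8177 against sham 2 were higher and 4 lower, with a median of 0.12 beside 0.03. The smallest p among them in sham against placebo was that of Secisbp2, which encodes a protein needed to insert selenocysteine into GPX2, TXNRD1 and other selenoproteins. Secisbp2 stood at 0.534, 0.267 and 0.363 UMIs per 10000 UMIs in sham GR12, GR13 and GR15, 0.888, 1.38 and 0.978 in placebo GR22, GR23 and GR24 and 0.576, 0.645 and 0.351 in PL8177 GR41, GR43 and GR44. Every sham and every PL8177 library lay below every placebo library, which held for 14.3% of all genes in sham and 14.1% in PL8177. Its log2 fold changes were -1.23 (SE 0.299) and -0.83 (SE 0.284; edgeR unadjusted p = 0.00130 and 0.0126, adjusted p = 0.193 and 0.419). Pstk and Sepsecs, which act in making the selenocysteine transfer RNA, also lay below placebo in every sham and PL8177 library, at log2 fold changes of -1.36 and -0.22 for sham and -0.64 and -0.66 for PL8177. The Pstk order rests on few UMIs, at 0.0668 and 0.0404 UMIs per 10000 UMIs in sham GR13 and GR15.

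Among the thioredoxin genes, Prdx2, a cytosolic peroxiredoxin, stood at 0.377, 0.535 and 0.767 UMIs per 10000 UMIs in sham GR12, GR13 and GR15, 0.278, 0.282 and 0.204 in placebo GR22, GR23 and GR24 and 0.179, 0.228 and 0.169 in PL8177 GR41, GR43 and GR44. Sham lay above both other groups, with log2 fold changes of 1.26 (SE 0.330) against placebo and, for PL8177 against sham, -1.47 (SE 0.327; edgeR adjusted p = 0.195 and 0.733). A library order of PL8177 below sham without overlap was found for 6.01% of genes and the reverse for 6.02%. Sesn2, a stress-induced sestrin, lay above placebo in every sham and PL8177 library (log2 fold changes 0.30 and 0.69). Sesn1 lay above placebo in every sham library (0.56). Msra lay below placebo in every sham and PL8177 library (-1.10 and -0.35). In the superoxide list Sod1, the cytosolic superoxide dismutase, lay below placebo in every library of both groups (-1.47 and -0.94), and Sod2 and Cat, the mitochondrial dismutase and catalase, had log2 fold changes of 0.84 (SE 0.481) and -0.71 (SE 0.699) for sham against placebo. Of the iron genes, Blvrb, a biliverdin reductase, was higher in every sham library (1.10, SE 0.353; edgeR adjusted p = 0.252), and Tfrc, the transferrin receptor, was lower in every PL8177 library than in placebo (-1.06, SE 0.366; edgeR adjusted p = 0.426). Aco1 was lower in every sham library than in placebo (-0.71, SE 0.284; edgeR adjusted p = 0.342). Of the glutathione genes, Gsto1 and Gss were lower in every sham library than in placebo (-1.39 and -0.58), and Gstp1 lower in every PL8177 library (-1.17). In the NADPH list, Me1, the cytosolic malic enzyme, was lower in every PL8177 library than in placebo (-0.78, SE 0.322), and the Taldo1 groups overlapped (1.04, SE 0.423). In the NRF2 regulation list, Btrc and Gsk3b, which take part in a KEAP1-independent route of NRF2 breakdown, were higher in every sham library than in placebo (0.88 and 0.36). Several of these library orders rest on very low counts. Gsto1 stood at 0.0223 and 0.0202 UMIs per 10000 UMIs in sham GR13 and GR15 and at 0.0627 in placebo GR23. Sod1 stood at 0 in sham GR13 and Blvrb at 0.0627 in placebo GR23.

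The genes whose log2 level across the 9 enterocyte libraries was most like that of Gpx2 were Mon1a (Pearson r = 0.975), Gon4l (0.970), Mief1 (0.967), Kdm2b (0.960) and Grb2 (0.957), chosen from the genes that passed the filter. Mon1a stood at 2.72, 4.30 and 3.896 UMIs per 10000 UMIs in sham GR12, GR13 and GR15, 1.67, 2.41 and 1.69 in placebo GR22, GR23 and GR24 and 2.07, 1.76 and 2.70 in PL8177 GR41, GR43 and GR44. It was highest in sham GR13 and GR15, the libraries of the fewest UMIs per nucleus. Among the set itself, Txnrd1 was most like Gpx2 (r = 0.78), and Nfe2l2 and Txn1 ran against it (r = -0.75 and -0.71) over the same 9 libraries. These values are descriptions over 9 libraries that share treatment and depth.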

How the data were processed

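Nuclei of frozen rat colon were profiled by the study with the 10x Genomics 3′ kit, version 3.1, and the submitters' processing notes name Cell Ranger 6.0.1, Seurat 4.0.3 and a rat reference of Rnor 6.0.97. The authors left out genes seen in fewer than 3 cells, cells of fewer than 200 genes and cells in which mitochondrial reads passed 5%, assigned cell types, and deposited UMI counts per gene and nucleus for the enterocytes and the T cells of each treatment. The placebo T cell table ends in 1 incomplete line, which was left out, so 15108 complete genes of it were used. Introns were counted, and CellBender, a tool that models empty droplets and free RNA, was run by the authors on the counts of the libraries. The aligner's settings for reads of several origins were not given in the sources used here.

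Nuclei of 1 library are not replicates, so counts were summed per library tag as written in the nucleus names. The depth is given in the report. The test on these sums was that of edgeR 4.0.16, run under R 4.3.3 (filterByExpr, TMM factors, quasi-likelihood test, Benjamini-Hochberg adjustment over all genes tested), with all 9 enterocyte libraries in 1 fit for the treatments and the library as a block where T cell and enterocyte nuclei, or the sides, of the same libraries were compared. DESeq2 1.42.0, RLE factors, no filter on low counts, nuclei with at least 500 genes, other choices of nuclei and each library left out were the alternatives. Levels are UMIs per 10000 UMIs. Thinning drew 300 UMIs of a nucleus without replacement. The steps were tested on simulated counts. No doublet caller was run, and no barcode was listed under both cell types of 1 library. Descriptions used Python 3.11.15, numpy 2.4.6, pandas 2.3.3, scipy 1.17.1 and matplotlib 3.10.9.

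The members and the lists were chosen with earlier results of these data known. Named beside the 10 members are, from each of 7 pathway lists, up to 4 genes with the smallest unadjusted p in sham or PL8177 against placebo, and the 5 genes most correlated with Gpx2 on the log2 CPM scale (TMM, prior count 2).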

Additional observations from a re-analysis of the deposited data

Results flagged for a closer look

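Nqo1, the quinone reductase, was counted higher in the T cell than in the enterocyte nuclei of all 3 placebo libraries, with means of 0.269 and 0.121 UMIs per 10000 UMIs, whereas no Nqo1 UMI was counted in PL8177 T cell nuclei, beside a mean of 0.0357 in the enterocyte nuclei. The difference between these 2 differences was 0.184 UMIs per 10000 UMIs and was not tested. It rests on 8 Nqo1 UMIs in placebo T cell nuclei, 3 of them in GR23, whose T cell nuclei went against their label. In GR23 the T cell and enterocyte levels were 0.0385 and 0.0313 UMIs per 10000 UMIs, on 3 and 1 Nqo1 UMIs. They were 0.373 and 0.0759 in GR22 and 0.396 and 0.254 in GR24, on 2 and 3 Nqo1 UMIs of T cell nuclei. The counts of 0 allow up to 1.25, 0.497 and 1.47 UMIs per 10000 UMIs in the T cell nuclei of PL8177 GR41, GR43 and GR44 (3 UMIs per library), all above the enterocyte levels, so no direction is shown for PL8177.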

How the results depend on the processing

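Of the log2 fold changes of single genes set against their value under an alternative, 581 kept their direction and side of the threshold, 39 changed direction, 10 became called and 9 lost the call. The alternatives of 500 to 1500 UMIs, of total UMIs and of at least 20 crypt-side nuclei were chosen after seeing the data. The cause of the changes below was not tested.

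DESeq2 called 107, 63 and 4 genes for sham and PL8177 against placebo and PL8177 against sham, 2 of them members in the first. With no filter on low counts edgeR called 51, 8 and 10 genes, 1 of them a member (Gpx2), 3881 for T cell against enterocyte nuclei and 2999 between the sides. With surface-side nuclei only it called 1 gene in sham against placebo. With crypt-side nuclei only it called 2 there and 2 in PL8177 against sham, where Gpx2 went to 0.15, while its sham and PL8177 differences from placebo went from 2.43 to 0.30 and from 1.02 to 0.46. These crypt-side values rest on 200 Gpx2 UMIs over all libraries. Within 500 to 1500 UMIs it called 260 genes and 2 members between the sides.

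In that band Gclm went to -0.98 (sham against placebo) and 0.39 (PL8177 against sham), Txn1 to 0.42 and Nfe2l2 to -0.0056 (PL8177 against placebo) and Gclc to 0.0263 (PL8177 against sham), and with surface-side nuclei only Gclm went to 0.0217 (PL8177 against placebo). For T cell nuclei Prdx1 went to -0.39 with no filter and -0.75 in marker nuclei, and Nfe2l2 to 0.10 with total UMIs. Between the sides Gclc went to 0.17 with total UMIs, 0.13 with these and at least 20 crypt-side nuclei and 0.14 without Slc26a3. Prdx1 went to -0.24 with no filter and -0.12 without the cycling genes, and Nfe2l2 to -0.21 with no filter.

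Leaving out 1 library in turn gave 0 to 8 called genes for sham against placebo, 0 to 2 for PL8177 against sham, and 1160 (without sham GR12) to 2780 (without placebo GR23) for T cell nuclei. It gave 4 to 5 called members for T cell nuclei and between the sides, where Nfe2l2 was called without placebo GR24 (0.72). For sham against placebo, Gpx2 ran from 2.12 to 2.89, Txn1 from -1.09 to -0.40 (without placebo GR22), Fth1 from -0.0717 to 0.83, Nqo1 from -1.07 to 0.48 and Gclm from -0.24 to 0.32. For PL8177 against placebo, Gpx2 ran from 0.41 (without PL8177 GR44) to 1.49 (without placebo GR23), Txn1 from -0.37 to 0.32, Fth1 from -0.22 to 1.00, Gclm from -0.26 to 0.23, Prdx1 from -0.0022 to 0.23 and Nfe2l2 from -0.16 to 0.30. For PL8177 against sham, Gpx2 ran from -2.01 to -1.02, Fth1 from -0.39 to 0.54, Gclc from -0.51 to 0.0154, Gclm from -0.34 to 0.20 and Txnrd1 from -0.39 to 0.0293. For T cell nuclei Prdx1 ran from -0.10 to 0.27. Each treatment held 3 libraries of 319125 to 4123319 enterocyte UMIs, and Gclm and Nqo1 rested on few UMIs in the smaller ones.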
